A study of Homo sapiens with 18 samples.

Results

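The enzymes described here prepare collagen for crosslinking and then crosslink it: 5 lysyl oxidases (LOX, LOXL1, LOXL2, LOXL3 and LOXL4), 3 lysyl hydroxylases (PLOD1, PLOD2 and PLOD3) and 2 alpha subunits of prolyl 4-hydroxylase (P4HA1 and P4HA2). They were taken by symbol from a table of raw RNA-seq read counts, where all 10 were found among 28278 symbols, and all 10 passed the filter on low counts that left 15353 genes for testing. The RNA was from LX-2, a human cell line of hepatic stellate origin. After 1 h without serum the cells received either 1 U/mL of thrombin, a serine protease of blood clotting, or serum-free medium as control, and were collected 4, 24 or 48 h later. This gave 6 groups of 3 libraries: control and thrombin at 4 h, control and thrombin at 24 h, and control and thrombin at 48 h. All groups share the line, the plating and the serum-free step, so they describe cells of 1 line without serum. The design compares thrombin with control at each time.

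Collagen chains are modified in the endoplasmic reticulum before they fold. Prolyl 4-hydroxylases make the hydroxyproline that keeps the triple helix stable, and lysyl hydroxylases make hydroxylysine, which carries sugars and decides which crosslinks can form. After secretion, lysyl oxidases, which are copper-dependent amine oxidases, turn lysines and hydroxylysines of collagen and elastin into aldehydes that join neighbouring chains. In liver, activated stellate cells are a main source of fibrillar collagen, and crosslinking makes scar matrix stiffer and harder to degrade. Both hydroxylase families need iron, 2-oxoglutarate, oxygen and ascorbate, and LOX, PLOD2, P4HA1 and P4HA2 are textbook targets of the hypoxia-inducible factors.

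Each library held 14431044 to 23270601 counts in total, of which a single member had between 34 and 16082 counts. The libraries carried stellate and fibroblast transcripts: the 13 markers of that list summed to between 3310 and 4330 CPM (counts scaled to the size of the library) in every library, most of it the intermediate filament gene VIM, while LRAT, LUM and DCN did not pass 10 counts in any library. Of 8 hepatocyte markers, the sum was between 4.11 and 7.00 CPM and the albumin gene ALB had at most 2 counts. The labels number the libraries of each group 12, 13 and 14 and do not state whether these were separate cultures, so p-values reflect only how far these libraries vary, and that variation may be technical. In the bulk RNA, more transcript per cell and more cells carrying it cannot be told apart. Of 15353 genes, 11 (0.0716%) were called between the groups labelled thrombin 4 h and control 24 h, and those labelled control 4 h and thrombin 24 h differed in 513 (3.34%). Within both 4 h groups library 12 stood apart, with a chi-square per degree of freedom of 14.4 to 17.04 against libraries 13 and 14, which gave 4.41 and 5.80 against each other. In control 48 h library 14 stood apart, at 17.73 and 12.9 against libraries 12 and 13, which gave 3.86. The thrombin 24 h libraries gave 7.69 to 12.02 against each other. Every direction below rests on the labels as given.

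RefSeq promoter entries matched 9 of the 10 members, all but LOXL2. The promoters of the 4 members taken here as hypoxia targets are shown because their transcripts did not move as a group. Each is the stretch of 250 bases before a start site in RefSeq (GRCh38.p14), read 5′ to 3′ on the gene's strand, and capitals mark ACGTG or GCGTG on either strand, the core letters of the hypoxia response element.
LOX, chr5:122078260-122078509, minus strand: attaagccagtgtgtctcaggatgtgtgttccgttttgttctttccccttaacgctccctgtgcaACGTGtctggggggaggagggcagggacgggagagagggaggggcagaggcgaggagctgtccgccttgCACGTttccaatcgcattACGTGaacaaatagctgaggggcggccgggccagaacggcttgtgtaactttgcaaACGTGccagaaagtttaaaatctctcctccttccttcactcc
PLOD2, chr3:146161185-146161434, minus strand: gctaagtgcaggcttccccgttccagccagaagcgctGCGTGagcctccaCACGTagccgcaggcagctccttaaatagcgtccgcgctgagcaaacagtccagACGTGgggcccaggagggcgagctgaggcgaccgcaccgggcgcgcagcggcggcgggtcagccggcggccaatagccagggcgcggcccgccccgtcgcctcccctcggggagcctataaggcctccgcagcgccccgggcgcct
P4HA1, chr10:73096867-73097116, minus strand: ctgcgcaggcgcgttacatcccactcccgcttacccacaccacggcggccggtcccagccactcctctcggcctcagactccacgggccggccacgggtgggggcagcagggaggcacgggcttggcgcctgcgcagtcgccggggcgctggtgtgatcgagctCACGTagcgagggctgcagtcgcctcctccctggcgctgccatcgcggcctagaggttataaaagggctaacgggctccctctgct
P4HA2, chr5:132227092-132227341, minus strand: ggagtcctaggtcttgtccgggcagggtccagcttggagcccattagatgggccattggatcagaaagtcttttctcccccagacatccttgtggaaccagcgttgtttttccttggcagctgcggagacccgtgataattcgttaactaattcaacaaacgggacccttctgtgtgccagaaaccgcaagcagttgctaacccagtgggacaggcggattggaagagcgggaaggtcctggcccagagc
The LOX window held ACGTG 4 times, PLOD2 held ACGTG 2 times and GCGTG once, P4HA1 held ACGTG once, and P4HA2 held neither. The P4HA2 window lies inside the gene, whose RefSeq span reaches position 132227853, so the bases before its outermost start were not searched. Of 35116 promoter windows of the same length, 18.5% held ACGTG and 32.2% held GCGTG on either strand, so a match is common and describes the letters alone. The table has 3 start sites for LOX, the window shown belongs to the outermost of them, and each of the other windows held both cores once. Of the other members, LOXL1, LOXL4 and PLOD3 held neither core, PLOD1 held GCGTG 2 times, and 1 of 2 LOXL3 windows held GCGTG once. Both LOXL3 windows also lie inside the RefSeq span of the gene, which reaches position 74555702.

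LOXL2 was the most abundant member per kilobase of exon and the one that changed most. Averaged over the 6 groups and divided by exon length from GENCODE v29, levels were 134.3 CPM per kilobase for LOXL2, 62.25 for PLOD1, 56.8 for PLOD3, 39.5 for LOXL1, 33.95 for P4HA2, 25.8 for LOX, 22.3 for PLOD2 and 8.36 for P4HA1. LOXL4 and LOXL3 were scarce, at 1.18 and 0.935 CPM per kilobase. The annotation used for counting was not given in the sources used here, so these per-length levels depend on the exon models chosen. Within the lysyl oxidases, LOXL2 made up between 55.0% and 77.4% of the per-kilobase total in each group, LOXL1 and LOX most of the rest. Within the prolyl 4-hydroxylase alpha subunits, P4HA2 made up between 76.5% and 86.7%.

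**Figure D1:**
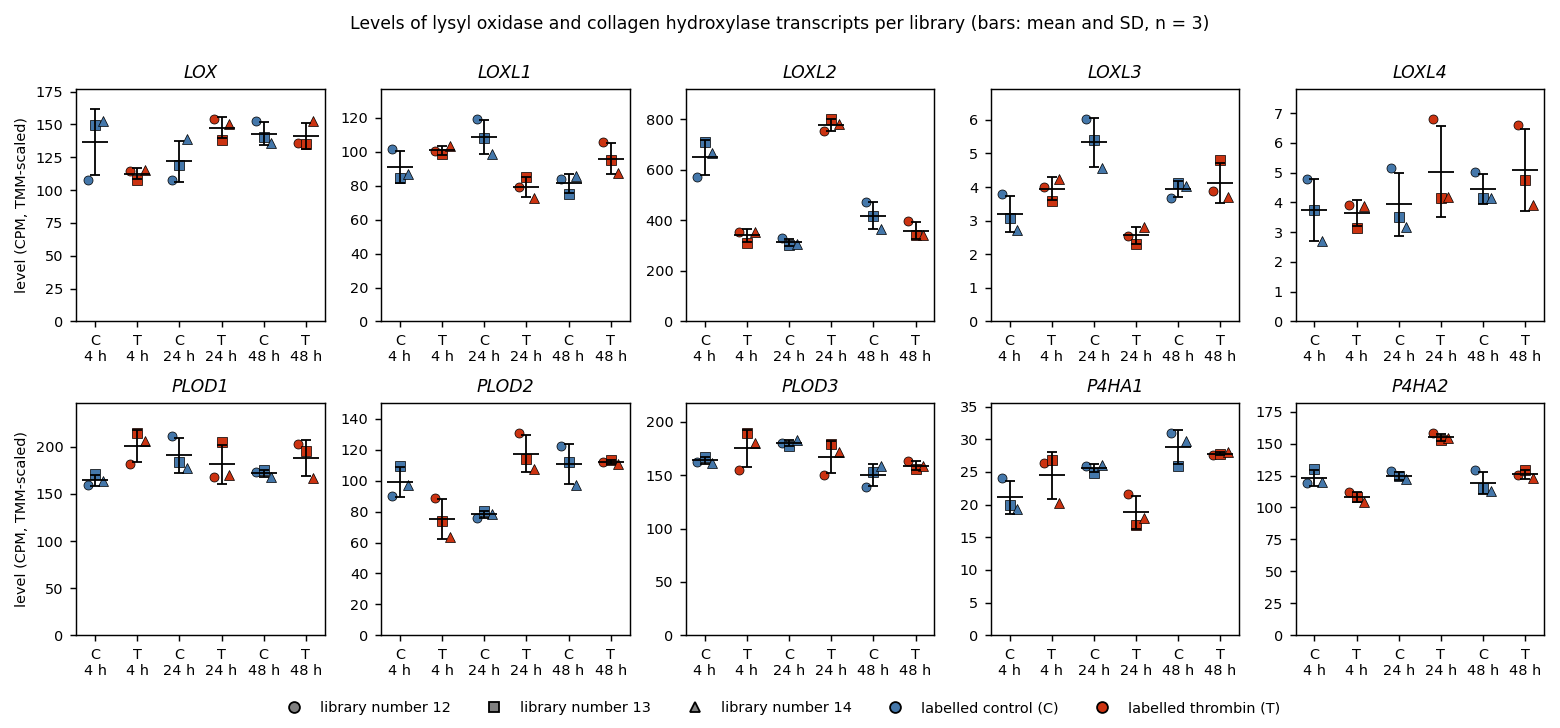
Level of each of the 10 transcripts in each of the 18 libraries, in TMM-scaled CPM on a linear axis from 0, by group as labelled (C, control; T, thrombin), with the mean and SD of 3 libraries; marker shapes give the library number. LOXL2 stands highest in the groups labelled thrombin 24 h (752 to 799 CPM) and control 4 h (572 to 709.6 CPM), and no library of the other 4 groups exceeds 472 CPM.

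LOXL2 (chr8:23297189-23425328, minus strand; GENCODE v29, GRCh38, as for the positions that follow) encodes a secreted lysyl oxidase with scavenger receptor domains that crosslinks fibrillar and basement membrane collagen. At 4 h its level was 572, 709.6 and 667 CPM in the 3 control libraries and 355.5, 312 and 355.7 CPM in the 3 thrombin libraries. At 24 h the control libraries measured 329, 302 and 308 CPM and the thrombin libraries 752, 799 and 781.5 CPM. At 48 h the control libraries measured 472, 418.5 and 367 CPM and the thrombin libraries 397, 342 and 341 CPM. Thrombin libraries were thus all below control at 4 h and all above control at 24 h, and the groups overlapped at 48 h. The log2 fold change was -0.93 ± 0.095 at 4 h (SE; edgeR adjusted p = 8.82e-07), 1.31 ± 0.10 at 24 h (edgeR adjusted p = 5.1e-10) and -0.22 ± 0.09 at 48 h (edgeR adjusted p = 0.64). The effect differed between 4 and 24 h by 2.24 ± 0.13 and between 24 and 48 h by -1.53 ± 0.13 on the log2 scale (edgeR adjusted p = 1.09e-11 and 2.74e-08).

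Ordered by level, LOXL2 was at 778 ± 24.0 CPM (SD, n = 3) in thrombin 24 h, 649 ± 70.4 in control 4 h, 419 ± 52.6 in control 48 h, 359.8 ± 32.0 in thrombin 48 h, 341 ± 25.2 in thrombin 4 h and 313 ± 14.1 in control 24 h. Only 1 step between neighbours in that order passed the test, control 4 h against control 48 h, where LOXL2 fell by 0.63 ± 0.09 on the log2 scale by 48 h (edgeR adjusted p = 0.000125). The highest groups, thrombin 24 h and control 4 h, did not overlap but were not called different (0.26 ± 0.09, edgeR adjusted p = 0.144). The lowest, thrombin 4 h and control 24 h, overlapped (0.12 ± 0.09, edgeR adjusted p = 0.999). Within the control libraries LOXL2 fell by 1.05 ± 0.095 from 4 to 24 h (edgeR adjusted p = 5.37e-08), and then rose by 0.42 ± 0.09 from 24 to 48 h (edgeR adjusted p = 0.00928). Within the thrombin libraries it rose by 1.19 ± 0.095 from 4 to 24 h and fell by 1.11 ± 0.095 from 24 to 48 h (edgeR adjusted p = 2.66e-09 and 9.74e-09). The control rise from 24 to 48 h was lost without control 24 h library 13 (edgeR adjusted p = 0.0577) or control 48 h library 12 (edgeR adjusted p = 0.08).

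LOX (chr5:122063195-122078360, minus strand), the founding member, whose proenzyme is cut by the proteinase BMP1, was not called in any of the 3 comparisons of thrombin with control, but lay close to the threshold at 4 and 24 h. At 4 h it measured 107.3, 149 and 152 CPM in control and 114.5, 107.9 and 115 CPM in thrombin. At 24 h it measured 107.5, 119 and 138.9 CPM in control and 154, 138 and 150.6 CPM in thrombin. The groups overlapped at both times, since control library 12 at 4 h lay as low as the thrombin libraries and control library 14 at 24 h lay at the lowest thrombin value. The log2 fold change was -0.28 ± 0.11 at 4 h (edgeR adjusted p = 0.0945) and 0.28 ± 0.11 at 24 h (edgeR adjusted p = 0.0774), and the difference between these effects was called (0.55 ± 0.15, edgeR adjusted p = 0.00781). Without control library 12 the 4 h change was called (-0.42, edgeR adjusted p = 0.00383), as was the 24 h change without control library 14 (0.39, edgeR adjusted p = 0.0245). LOX was also called without the filter on low counts at 4 h (edgeR adjusted p = 0.0323) and 24 h (0.0337), without all libraries numbered 12 at 4 h (0.000938), and with only the 24 h libraries at 24 h (0.0426).

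LOXL1 (chr15:73925989-73952137, plus strand), which is tied to elastic fibres, went against LOXL2 at 24 h. Control libraries measured 119, 107.9 and 98.7 CPM and thrombin libraries 79.4, 84.8 and 73.0 CPM, with no overlap. The log2 fold change was -0.46 ± 0.09 (edgeR adjusted p = 0.00106). At 4 h it was 0.15 ± 0.09 and at 48 h 0.24 ± 0.09, neither called (edgeR adjusted p = 0.331 and 0.61), and the effect went down by -0.60 ± 0.13 from 4 to 24 h and up by 0.69 ± 0.13 from 24 to 48 h on the log2 scale (edgeR adjusted p = 0.00121 and 0.000781). In GENCODE v29, 9.87% of LOXL1 exonic bases overlap LOXL1-AS1 on the opposite strand, which had 228 to 411 counts per library, and the strand setting of the counting was not given in the sources used here.

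LOXL3 (chr2:74532414-74555690, minus strand) showed the largest called decrease of the 10 at 24 h, on a low level. Its control libraries measured 6.015, 5.41 and 4.565 CPM and its thrombin libraries 2.56, 2.31 and 2.82 CPM, from 34 to 90 counts a library, and the groups did not overlap. LOXL3 fell by 1.05 ± 0.18 on the log2 scale at 24 h (edgeR adjusted p = 0.000203), while 4 h (0.30 ± 0.18) and 48 h (0.08 ± 0.17) were not called (edgeR adjusted p = 0.29 and 0.94). HTRA2, a mitochondrial protease gene on the opposite strand, covers 15.17% of LOXL3 exonic bases and had 459 to 976 counts, so the level of LOXL3 is uncertain. HTRA2 itself was at -0.12 ± 0.10 at 24 h (edgeR adjusted p = 0.448) and rose by 0.37 ± 0.10 at 4 h (edgeR adjusted p = 0.0167). The LOXL3 effect went down by -1.35 ± 0.255 from 4 to 24 h and up by 1.12 ± 0.25 from 24 to 48 h (edgeR adjusted p = 0.000302 and 0.00356). LOXL4 (chr10:98247690-98268250, minus strand), the remaining lysyl oxidase, measured 2.71 to 6.79 CPM over all 18 libraries, with overlapping groups at each time and no call (edgeR adjusted p = 0.915, 0.339 and 0.877 at 4, 24 and 48 h). Its standard errors, 0.23 to 0.24 on the log2 scale, were the widest of the members.

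PLOD2 (chr3:146069440-146163653, minus strand), the lysyl hydroxylase of the collagen telopeptides, whose products favour stable crosslinks, moved in the same direction as LOXL2 at 4 and 24 h. At 4 h control libraries measured 90.2, 109.5 and 97.5 CPM and thrombin libraries 88.9, 73.8 and 63.4 CPM. At 24 h the values were 76.05, 80.25 and 78.6 CPM in control and 130.7, 114 and 107.6 CPM in thrombin. At 48 h control libraries measured 122.7, 112.3 and 97.0 CPM and thrombin libraries 111.9, 113.3 and 110.8 CPM. Thrombin libraries lay below control at 4 h by a narrow margin, above control at 24 h, and inside the control range at 48 h. The log2 fold changes were -0.39 ± 0.11, 0.59 ± 0.11 and 0.02 ± 0.11 (edgeR adjusted p = 0.0165, 0.000317 and 0.985). The 4 h call of PLOD2 was lost without control library 13 (edgeR adjusted p = 0.114), thrombin library 13 (0.0681) or thrombin library 14 (0.134).

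After 24 h PLOD2 did not return to its earlier level in thrombin libraries, and it rose in control libraries. In the thrombin libraries PLOD2 measured 112 ± 1.24 CPM at 48 h against 117.5 ± 11.9 at 24 h (-0.07 ± 0.11, edgeR adjusted p = 0.763), and it was higher at 48 h than at 4 h (0.57 ± 0.11, edgeR adjusted p = 0.00602). In the control libraries PLOD2 rose from 78.3 ± 2.11 CPM at 24 h to 110.7 ± 12.9 CPM at 48 h (0.50 ± 0.11, edgeR adjusted p = 0.0067). The effect of thrombin on PLOD2 differed between 4 and 24 h (0.98 ± 0.15, edgeR adjusted p = 2.51e-05) and between 24 and 48 h (-0.57 ± 0.15, edgeR adjusted p = 0.0118). The latter call was lost without all libraries numbered 12 (-0.38, edgeR adjusted p = 0.0663). Whether its course differs from that of LOXL2, which fell in thrombin libraries after 24 h, was not tested. The control rise of PLOD2 was lost without control 48 h library 12 (edgeR adjusted p = 0.0536), and its excess in thrombin 48 h over thrombin 4 h without thrombin 4 h library 13 (0.055) or 14 (0.073).

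PLOD1 (chr1:11934205-11975538, plus strand) and PLOD3 (chr7:101205977-101218420, minus strand) encode the lysyl hydroxylases of the helix, and PLOD3 also glycosylates hydroxylysine. PLOD1 measured 159.2, 171 and 163.2 CPM in control and 181.4, 214 and 206.6 CPM in thrombin at 4 h, without overlap, and the log2 fold change at 4 h was 0.29 ± 0.09 (edgeR adjusted p = 0.0433). That call is weak: it was lost without control library 12, 13 or 14 (edgeR adjusted p = 0.0953, 0.0727 and 0.113), without thrombin library 13 or 14 (0.165 and 0.142) and in a fit of the 4 h libraries alone (0.0897). At 24 and 48 h PLOD1 was at -0.07 ± 0.09 and 0.13 ± 0.09 and not called. PLOD3 stayed between 138.7 and 189 CPM in all libraries, with log2 fold changes of 0.095 ± 0.08, -0.11 ± 0.08 and 0.08 ± 0.08 at the 3 times, none called. The 95% interval of the PLOD3 change at 24 h ran from -0.28 to 0.06 on the log2 scale.

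The alpha subunits of prolyl 4-hydroxylase, P4HA1 (chr10:73007217-73096974, minus strand) and P4HA2 (chr5:132191838-132295315, minus strand), moved apart at 24 h. P4HA2 measured 128.2, 124.3 and 122.2 CPM in control and 158, 152.5 and 154 CPM in thrombin, and P4HA1 measured 25.9, 24.9 and 26.1 CPM in control and 21.7, 16.85 and 18.0 CPM in thrombin. All thrombin libraries lay above control for P4HA2 and below control for P4HA1. P4HA2 rose by 0.31 ± 0.07 and P4HA1 fell by 0.445 ± 0.12 on the log2 scale (edgeR adjusted p = 0.00371 and 0.00954), and P4HA2 went from 79.3 ± 0.561% to 86.7 ± 1.31% of their per-kilobase sum (SD, n = 3). The P4HA1 call was lost without thrombin library 13 (edgeR adjusted p = 0.0534). At 4 h neither was called (-0.18 ± 0.07 for P4HA2 and 0.22 ± 0.115 for P4HA1, edgeR adjusted p = 0.105 and 0.238), and the difference between the 4 and 24 h effects was called for both (0.495 ± 0.10 and -0.66 ± 0.165, edgeR adjusted p = 0.000818 and 0.00398). P4HA2 was higher in thrombin 24 h than in control 4 h (0.33 ± 0.07, edgeR adjusted p = 0.00766), a call lost with only the libraries of these groups (edgeR adjusted p = 0.0729). Without all libraries numbered 12 the 4 h decrease of P4HA2 was called (-0.235, edgeR adjusted p = 0.0372). An antisense gene, P4HA2-AS1, overlaps 14.76% of P4HA2 exonic bases but had at most 6 counts in any library.

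**Figure D2:**
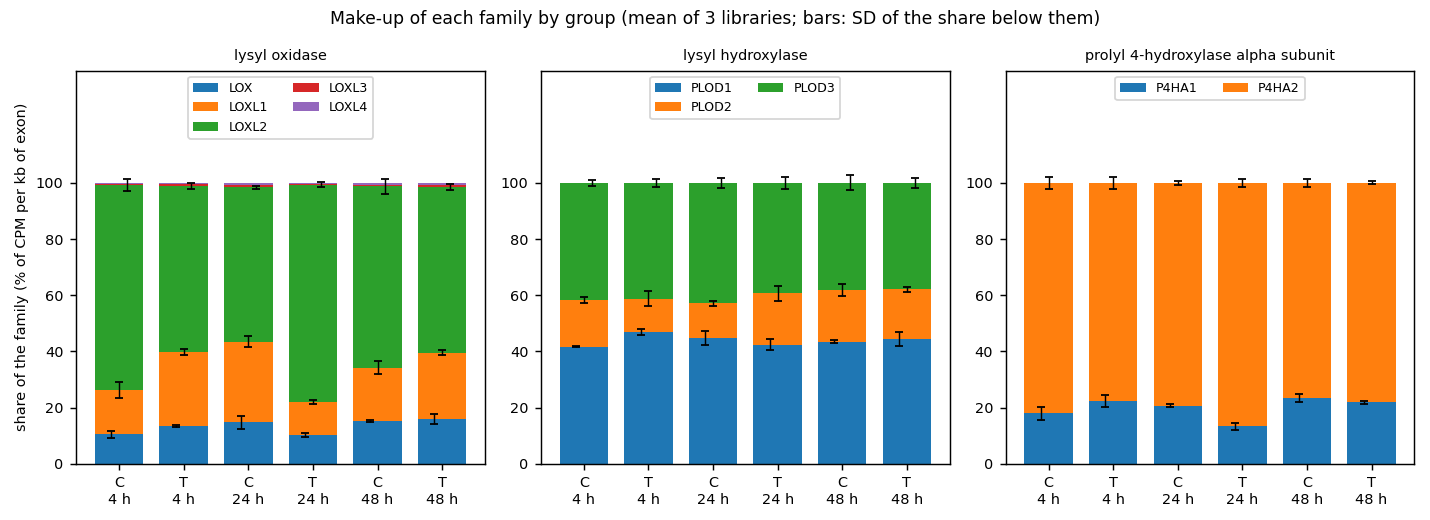
Share of each gene in the per-kilobase total of its family, in percent of CPM per kilobase of exon, by group as labelled; stacked bars are means of 3 libraries, and error bars are SDs of the segment that ends there (not drawn for LOXL3 and LOXL4, which are under 1%). LOXL2 takes 77.4% of the lysyl oxidase total in thrombin 24 h and 55.0% in control 24 h, and P4HA2 takes 86.7% and 79.3% of the alpha subunit total in the same groups.

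Counted over the 10 members, 1 was called higher (PLOD1) and 2 lower (LOXL2 and PLOD2) in thrombin at 4 h, where 6.29% of all genes tested were called higher and 5.52% lower. At 24 h 3 were called higher (LOXL2, PLOD2 and P4HA2) and 3 lower (LOXL1, LOXL3 and P4HA1), where 9.05% of all genes were higher and 8.54% lower. The groups did not overlap for 4 members at 4 h (25.8% of all genes), 6 at 24 h (34.1%) and 1 at 48 h (14.2%). The median log2 fold change of the 10 was 0.02 at 4 h, 0.10 at 24 h and 0.08 at 48 h, beside -0.001, 0.002 and 0.009 over all genes, so calls ran both ways around a centre near 0. The effect at 24 h was called higher than at 4 h for 4 members (LOX, LOXL2, PLOD2 and P4HA2) and lower for 4 (LOXL1, LOXL3, PLOD1 and P4HA1), with backgrounds of 13.6% and 14.3%. Between 24 and 48 h the effect rose for LOXL1 and LOXL3 and fell for LOXL2 and PLOD2 (2 higher and 2 lower, backgrounds 7.16% and 6.68%), and between 4 and 48 h it differed for LOXL2 alone (0.71 ± 0.13, edgeR adjusted p = 0.00892; 1 higher and 0 lower, backgrounds 0.475% and 0.156%). The PLOD1 difference between 4 and 24 h (-0.36 ± 0.13, edgeR adjusted p = 0.0414) was lost in 9 of 12 fits that left out 1 library, with adjusted p up to 0.144 (without control 24 h library 12). All 10 estimates had opposite signs at 4 and 24 h, as did 69.5% of all genes. These 2 comparisons have no library in common, but their groups were alike across the labels. Thrombin 4 h and control 24 h differed in 11 genes (0.0716%), and control 4 h and thrombin 24 h in 513 (3.34%). The part of this likeness in the opposite signs was not tested.

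At 48 h no member was called by edgeR (0 of 10, background 0%) and none by DESeq2. At an unadjusted p under 0.05, LOXL1 was higher (1 member) and LOXL2 lower (1 member). By p they ranked 444 and 648 among the 15353 genes tested, and how many genes passed that threshold was not counted. The 95% interval of the log2 fold change at 48 h ran from -0.41 to -0.03 for LOXL2, from -0.20 to 0.23 for PLOD2 and from -0.07 to 0.23 for P4HA2. None of these intervals reaches the estimate of the same gene at 24 h (1.31 for LOXL2, 0.59 for PLOD2 and 0.31 for P4HA2). Those estimates have errors of their own, and for P4HA2 the 95% interval at 24 h, 0.16 to 0.46, overlaps that at 48 h. The direct test from 24 to 48 h, called for LOXL2 and PLOD2, was not called for P4HA2 (-0.23 ± 0.10, edgeR adjusted p = 0.142).

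**Figure D3:**
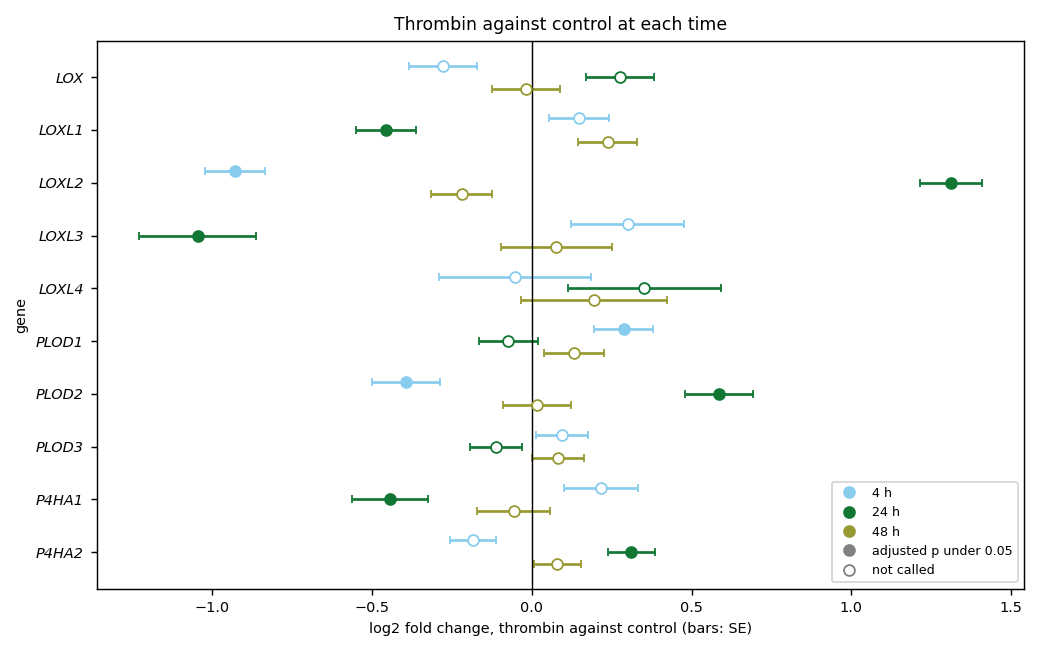
Log2 fold change of thrombin against control for each of the 10 genes at 4, 24 and 48 h (points, with SE bars from edgeR); filled points have an adjusted p under 0.05. At 24 h LOXL2 lies at 1.31 and LOXL3 at -1.05, and every 48 h point is open.

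Changes with time inside 1 treatment were also counted. In control libraries from 4 to 24 h, LOXL3 rose (0.73 ± 0.18, edgeR adjusted p = 0.00558) and LOXL2 and PLOD2 fell (1 higher and 2 lower, backgrounds 8.1% and 7.15%), with PLOD2 at -0.34 ± 0.11 (edgeR adjusted p = 0.0312). That PLOD2 call was lost without control 24 h library 12, 13 or 14 (edgeR adjusted p = 0.112, 0.0725 and 0.0631) or control 4 h library 13 or 14 (0.167 and 0.0654). From 24 to 48 h in control, LOXL2 and PLOD2 rose and LOXL1 fell by 0.41 ± 0.09 (2 higher and 1 lower, backgrounds 2.69% and 3.43%). The LOXL1 call was lost without control 24 h library 12 (edgeR adjusted p = 0.105) or control 48 h library 13 (0.0712). From 4 to 48 h in control, 1 member was higher (P4HA1) and 1 lower (LOXL2), beside 3.76% and 4.17% of all genes.

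In thrombin libraries from 4 to 24 h, LOX, LOXL2, PLOD2 and P4HA2 rose and LOXL1, LOXL3 and P4HA1 fell (4 higher and 3 lower, backgrounds 7.85% and 7.28%). P4HA2 went from 108.4 ± 3.99 to 155 ± 2.83 CPM (0.515 ± 0.07, edgeR adjusted p = 1.76e-05), and PLOD2 rose by 0.64 ± 0.11 (edgeR adjusted p = 0.000134). LOXL2 had the smallest adjusted p of the 7, given above. LOX (0.39 ± 0.11) lost its call without thrombin 24 h library 12 or 14 or thrombin 4 h library 13 (edgeR adjusted p = 0.0505, 0.0524 and 0.0741), and LOXL1 (-0.35 ± 0.09) without thrombin 24 h library 14 (0.0748). LOXL3 (-0.62 ± 0.185) lost it without thrombin 24 h library 12 or 13 or thrombin 4 h library 14 (edgeR adjusted p = 0.067, 0.0823 and 0.0903). P4HA1 (-0.38 ± 0.12) lost it without thrombin 24 h library 13 or 14 or thrombin 4 h library 12 or 13 (edgeR adjusted p = 0.113, 0.105, 0.0753 and 0.138).

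From 24 to 48 h in thrombin, LOXL2 and P4HA2 fell while LOXL3 and P4HA1 rose (2 higher and 2 lower, backgrounds 4.31% and 5.41%). P4HA2 fell by 0.30 ± 0.07 and P4HA1 rose by 0.56 ± 0.12 (edgeR adjusted p = 0.00836 and 0.00218). The LOXL3 rise (0.69 ± 0.19, edgeR adjusted p = 0.0184) was lost without library 13 of thrombin 24 h (0.0787) or of thrombin 48 h (0.134). From 4 to 48 h in thrombin, 1 member was higher (PLOD2) and 0 lower, beside 0.638% and 0.469% of all genes.

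At 48 h P4HA1 measured 28.9 ± 2.60 CPM without and 27.8 ± 0.251 CPM with thrombin, both above its 21.1 ± 2.58 CPM in control 4 h (0.45 ± 0.115 and 0.40 ± 0.12, edgeR adjusted p = 0.0156 and 0.0247). The first of these calls was lost without control 48 h library 12 or control 4 h library 13 or 14 (edgeR adjusted p = 0.0875, 0.0688 and 0.0724). The other was lost without control 4 h library 13 or 14 or thrombin 48 h library 12, 13 or 14 (edgeR adjusted p = 0.0981, 0.105, 0.0587, 0.0766 and 0.0624). LOXL2 was lower in thrombin 48 h than in control 4 h by -0.85 ± 0.095 (edgeR adjusted p = 1.21e-06), so that comparison had 1 member higher and 1 lower, beside 6.37% and 5.92% of all genes.

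Between thrombin 4 h and control 24 h, 0 of 10 members were called higher and 0 lower by edgeR (backgrounds 0.0195% and 0.0521%), and 0 by DESeq2. LOXL3 and P4HA2 were lower at an unadjusted p under 0.05, at ranks 357 and 233 by p among 15353 genes. Between thrombin 4 h and control 48 h, PLOD2 was lower (-0.55 ± 0.11, edgeR adjusted p = 0.00732), so 0 were higher and 1 lower, beside 1.73% and 1.28% of all genes. That call was lost without control 48 h library 12 or thrombin 4 h library 13 or 14 (edgeR adjusted p = 0.0744, 0.0625 and 0.0856). Between thrombin 24 h and control 4 h, 1 of 10 was higher (P4HA2) and 0 lower, beside 2.37% and 0.97% of all genes.

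The partners and substrates of these enzymes were counted from lists of named genes. Over all genes, 9.05% were called higher and 8.54% lower at 24 h, and 6.29% and 5.52% at 4 h. These shares are the background for every list below at those times. Of 19 tested genes of collagen processing in the endoplasmic reticulum, 2 rose and 1 fell at 24 h, with a median log2 fold change of -0.005. The collagen galactosyltransferase gene COLGALT1 rose by 0.36 ± 0.08, the prolyl 3-hydroxylase gene P3H2 rose by 0.61 ± 0.145, and FKBP7, a prolyl isomerase gene, fell by 0.50 ± 0.16. P4HB, the shared beta subunit of prolyl 4-hydroxylase, measured 1221 ± 38.8 CPM in the 24 h control group and 1349 ± 80.1 CPM with thrombin, a difference that did not pass the test (0.14 ± 0.07, edgeR adjusted p = 0.193). The third alpha subunit gene, P4HA3, had at most 8 counts in a library and was not tested. The FKBP7 call is weak, since 0 of the 19 were lower in each of 6 fits that left out 1 library. At 4 h 1 of the 19 rose, P3H3 (0.34 ± 0.09, edgeR adjusted p = 0.0166), and 0 fell. At 4 h 0 of the 19 were higher without control library 13 or 14 or thrombin library 13 or 14.

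Of 6 tested procollagen proteinases and enhancers, 3 rose and 0 fell at 24 h. BMP1, which trims procollagen and the LOX proenzyme, rose by 0.44 ± 0.10, ADAMTS2, an N-propeptide proteinase gene, by 0.61 ± 0.15 and TLL1, a BMP1 relative, by 1.82 ± 0.46 (edgeR adjusted p = 0.00316, 0.00489 and 0.00648). At 4 h ADAMTS2 fell by 0.45 ± 0.15 (edgeR adjusted p = 0.0448) and none of the 6 rose. That call is weak, since 0 of the 6 were lower at 4 h without control library 12, 13 or 14 or thrombin library 13 or 14. Of 10 tested crosslinking substrates, 4 rose and 1 fell at 24 h. COL5A1 rose by 0.64 ± 0.10, COL1A1 by 0.43 ± 0.10, COL5A2 by 0.38 ± 0.12 and COL1A2 by 0.59 ± 0.19, and the cartilage collagen gene COL2A1 fell by 0.84 ± 0.26. At 4 h COL1A1 and COL5A1 fell by 0.33 ± 0.10 and 0.48 ± 0.10, and 0 of the 10 rose. The elastin gene ELN had at most 6 counts and was not tested. Leaving out 1 library at a time gave 2 to 4 substrates higher and 0 to 2 lower at 24 h and 1 to 3 lower at 4 h. In each of the 24 h fits 3 proteinases stayed higher, and 0 to 1 were lower. COL1A1 measured 2010 ± 238 CPM in the 24 h control group and 2716 ± 91.9 CPM with thrombin.

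Among 10 tested carriers and fibril partners, 4 rose and 1 fell at 24 h, and 0 rose and 2 fell at 4 h. The thrombospondin genes THBS1 and THBS2 rose by 1.40 ± 0.12 and 0.92 ± 0.13 at 24 h and fell by 0.58 ± 0.12 and 0.84 ± 0.13 at 4 h. The fibronectin gene FN1 rose by 1.07 ± 0.17 and the fibrillin gene FBN1 by 0.81 ± 0.16 at 24 h, and the decrease was in EMILIN1 (-1.001 ± 0.25), which is named after its value was seen. Of 3 other tested crosslinking enzymes none was called by edgeR at any time, with the transglutaminase gene TGM2 at 0.255 ± 0.13 and the peroxidasin gene PXDN at 0.27 ± 0.11 at 24 h. PXDN was higher at an unadjusted p under 0.05 at 24 h, the only 1 of the 3 at that time, and 0 were at 4 h. The share of all genes under that threshold was not counted.

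A list of 10 metal and ascorbate transport and supply genes, headed copper and ascorbate supply, had 0 higher and 3 lower at 24 h, and 2 higher and 0 lower at 4 h. It includes a zinc transporter gene, SLC39A13, counted at both times. ATP7A, the pump that loads copper into secreted enzymes, fell by 0.42 ± 0.13, SLC2A1, a glucose transporter gene whose product also takes up oxidised ascorbate, by 0.48 ± 0.08, and SLC39A13, which serves the early secretory pathway, by 0.27 ± 0.09 at 24 h. At 4 h SLC39A13 rose by 0.41 ± 0.09, as did the second copper pump gene, ATP7B (0.43 ± 0.13, named after its value was seen). Leaving out 1 library at a time gave 1 to 2 of the 10 lower at 24 h and 1 to 2 higher at 4 h. A list of hypoxia-inducible factor targets, without the members and without SLC2A1, had 19 tested genes. Of these, 5 rose and 3 fell at 24 h, and 1 rose and 4 fell at 4 h. Leaving out 1 library at a time gave 5 to 6 higher and 1 to 3 lower at 24 h, and 0 to 1 higher and 2 to 3 lower at 4 h, so the count of 4 was not reached in any of those fits. VEGFA rose by 0.69 ± 0.12, the lactate dehydrogenase gene LDHA by 0.43 ± 0.08 and NDRG1 by 0.44 ± 0.09, while MXI1 fell by 0.82 ± 0.13. The 4 members taken here as hypoxia targets were also split at 24 h, with PLOD2 and P4HA2 higher, P4HA1 lower and LOX not called. At 48 h none of these lists had a gene called by edgeR, where 0 genes of the table were called, and none had a gene called by DESeq2, which called 9 genes of the table higher and 5 lower. Without the filter on low counts edgeR called 25 higher and 25 lower. At an unadjusted p under 0.05, the endoplasmic reticulum, proteinase, substrate and other crosslinking lists each had 0 genes at 48 h. Carriers had 1, copper and ascorbate 1, and hypoxia targets 5 (4 higher and 1 lower). How many of all genes passed that threshold was not counted, so these counts have no background. LOXL2, at an unadjusted edgeR p of 0.0276, ranked 648 of 15353.

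**Figure D4:**
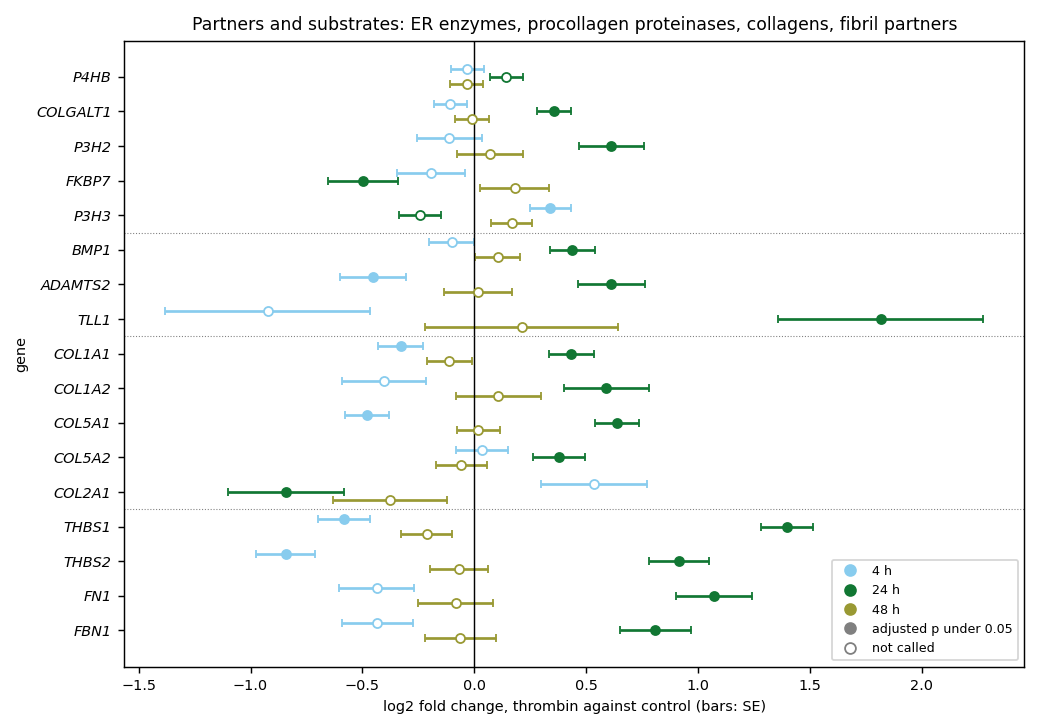
Log2 fold change of thrombin against control for partner and substrate genes at 4, 24 and 48 h (points, with SE bars from edgeR; filled, adjusted p under 0.05), in blocks from the top: endoplasmic reticulum enzymes, procollagen proteinases, collagens, fibril partners. At 24 h TLL1 lies at 1.82, THBS1 at 1.40 and COL1A1 at 0.43, and P4HB is open at each time.

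Epithelial keratins moved with the groups in which LOXL2 was high. The 6 cholangiocyte and epithelial markers summed to 227 to 274 CPM in control and 177 to 219 CPM in thrombin at 4 h, and to 149 to 186 CPM in control and 241 to 317 CPM in thrombin at 24 h. At 24 h 3 of 4 tested markers rose (background 9.05%), among them KRT8 (0.77 ± 0.13) and KRT18 (0.78 ± 0.11). The defining epithelial genes EPCAM and CDH1 had at most 3 and 4 counts in any library, near 0. Stellate and fibroblast markers changed too, although their sum, mostly VIM, ranged from 3580 to 3800 CPM in control and 3490 to 4330 CPM in thrombin at 24 h. Of 10 tested, 5 rose and 2 fell at 24 h (backgrounds 9.05% and 8.54%). Among the 5 were the smooth muscle gene TAGLN at 2.52 ± 0.13, RELN at 3.38 ± 0.36, PDGFRA at 1.44 ± 0.27 and ACTA2 at 0.71 ± 0.14. The 2 that fell are not named here. RELN had 11 to 258 counts over all libraries and PDGFRA 13 to 79, so their changes rest on low levels. At 4 h 1 of the 10 rose and 2 fell. Of 6 tested endothelial markers, 2 rose and 1 fell at 24 h, with the list's sum at 16.6 to 24.8 CPM in control and 16.3 to 21.2 CPM in thrombin, and CLEC4G at 0 counts in every library. The part of these markers in the results was not tested.

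Over the 6 group means (log2 CPM, centred on each gene's mean), the tested genes with the smallest root mean square difference from LOXL2 were BEX1 (0.06), SAMD9 (0.07) and ALDH1A3 (0.08), a retinaldehyde dehydrogenase gene, where LOXL2 itself varied by 0.49. For PLOD2, which varied by 0.255, they were BCAT1 (0.02), which encodes a branched-chain aminotransferase, NAV3 (0.04) and RAB3B (0.06). For P4HA2, which varied by 0.155, they were TVP23A (0.02), the T-box factor gene TBX20 (0.035) and IL4R (0.04), the interleukin-4 receptor gene. For LOX, which varied by 0.14, they were MTRR (0.02), APBB2 (0.02) and FER (0.02). Among the members themselves, the nearest to LOXL2 was PLOD2, at 0.39, and the nearest to PLOD2 was LOX, at 0.12. LOXL3 and P4HA1 were each other's nearest member, at 0.20.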

How the data were processed

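Poly(A) RNA-seq libraries of LX-2 cells, 6 groups of 3, were deposited by the authors as 1 table of raw read counts per gene symbol. GRCh38 (hg38) is the build, and Bowtie2 2.5.4, cutadapt 4.9, DESeq2 and SAMtools 1.21 the tools, per the submitters' processing notes. Not given in the sources used here are the counter, the annotation and whether strand was used. Reads are not spliced by Bowtie2, and how reads across exon junctions were treated was not given, which bears on levels per kilobase.

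From these counts, edgeR 4.0.16 (R 4.3.3) was run with TMM scaling (factors 0.945 to 1.03), its filter on low counts (minimum 10), 6 group means and a robust quasi-likelihood test. P-values were adjusted by Benjamini-Hochberg over 15353 genes, with a threshold of 0.05, and each standard error is the absolute log2 fold change over the root of F. CPM values are TMM-scaled. The code was tested on simulated data. DESeq2 1.42.0, RLE scaling, no filter, only the groups compared, a replicate block, and leaving out libraries were alternatives. The labels do not say that a library number marks a shared culture or day. Correlations of same-number deviations ran from -0.093 to 0.057 between thrombin and control, and from -0.167 to 0.275 over all 45 same-number pairs, 11 of them over 0.1, so the numbers were not taken as pairs.

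The members and lists were chosen with earlier results of these data known. Named genes are all members, up to 4 genes of a list with the smallest adjusted p at 24 h, P4HB, P4HA3, BMP1, COL1A1, COL1A2 and ELN, and the 3 nearest profiles of 4 members. Promoter windows are from RefSeq and exon lengths from GENCODE v29.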

Additional observations from a re-analysis of the deposited data

Results flagged for a closer look

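The effect of thrombin differed between times for 8 members, each by a test of the difference itself in edgeR, given here as the later minus the earlier log2 fold change. From 4 to 24 h it differed by 2.24 for LOXL2, 0.98 for PLOD2, 0.55 for LOX and 0.495 for P4HA2, whose effects went up. It differed by -1.35 for LOXL3, -0.66 for P4HA1, -0.60 for LOXL1 and -0.36 for PLOD1, whose effects went down. From 24 to 48 h it differed by -1.53 for LOXL2 and -0.57 for PLOD2, and by 1.12 for LOXL3 and 0.69 for LOXL1. From 4 to 48 h it differed by 0.71 for LOXL2. The labels thrombin 4 h and control 24 h belong to libraries that were alike, as the report gives, and the part of this in the differences was not tested.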

How the results depend on the processing

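Of 360 log2 fold changes of members between thrombin and control under the alternatives, 343 stayed on their side of the threshold, 10 lost a call and 7 gained one. Of 540 differences between times, 523 stayed, 12 lost and 5 gained a call. Of 1198 values of the other comparisons, 1126 stayed, 40 lost and 32 gained a call. No called value reversed, but 14, 6 and 34 values that were not called changed sign.

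Counts of called members moved in the following fits, and the cause was not tested. With only the libraries compared, 0 were higher in thrombin at 4 h, 0 in thrombin 24 h against control 4 h, 1 was lower in thrombin 24 h against 4 h and 2 in control 48 h against 24 h. Without all libraries numbered 12, 4 were lower in thrombin at 4 h, 1 effect fell from 24 to 48 h, 4 rose from 4 to 48 h, 3 were higher in control 24 h against 4 h, 3 higher and 1 lower in thrombin 48 h against 4 h, and 3 higher and 2 lower in thrombin 4 h against control 48 h. Without the filter, 2 were higher in thrombin 48 h against 4 h, and 1 was higher and 3 lower in thrombin 4 h against control 48 h. DESeq2 gave 1 higher and 3 lower there, and 2 lower in control 48 h against 24 h. Over all genes at 4 h, 1772 were called higher without the libraries numbered 12 and 570 with the 4 h libraries alone, against 965.

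With the replicate block, 2 members were lower in control 48 h against 24 h (PLOD3 joined, edgeR adjusted p = 0.0454), LOXL1 was called in thrombin 48 h against 24 h (0.0496), and no other member call changed. Whether the shared library numbers mark pairs is not stated in the labels, and the correlations given above cannot settle it.

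Leaving out 1 library at a time gave 0 to 1 members higher and 1 to 3 lower in thrombin at 4 h, 3 to 4 and 2 to 3 at 24 h, and 0 at 48 h. For differences of the effect it gave 4 higher and 3 to 5 lower from 4 to 24 h. In control it gave 1 to 3 higher and 1 to 3 lower from 4 to 24 h, 0 to 2 and 0 to 2 from 24 to 48 h, and 0 to 1 and 1 from 4 to 48 h. In thrombin it gave 3 to 4 higher and 1 to 2 lower from 4 to 24 h, 1 to 3 and 2 from 24 to 48 h, and 0 to 1 and 0 from 4 to 48 h. It gave 0 to 3 and 0 to 3 for thrombin 4 h against control 48 h, and 0 to 1 and 1 for thrombin 48 h against control 4 h. LOXL3, LOXL4 and P4HA1 have the fewest counts, which limits their precision.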

Other observations

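The chains of type I collagen differed widely in level. COL1A1 lay between 298.8 and 403.7 CPM per kilobase in the group means, and COL1A2, whose chain joins it in the usual heterotrimer, between 2.77 and 4.17 CPM per kilobase. COL1A2 had 207 to 423 counts in a library.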
